A study of Arabidopsis thaliana with 12 samples.

Results

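The 10 genes described here encode the small subunits of Rubisco, Rubisco activase and enzymes of the Calvin cycle, and they were taken by gene identifier from the 26891 genes of the deposited table. They are *RBCS1A* (AT1G67090), *RBCS1B* (AT5G38430), *RBCS2B* (AT5G38420), *RBCS3B* (AT5G38410), *RCA* (AT2G39730), *PRK* (AT1G32060), *SBPASE* (AT3G55800), *CFBP* (AT3G54050), *GAPA* (AT3G26650) and *GAPB* (AT1G42970). RNA-seq libraries were made from whole seedlings of the Columbia ecotype, 8 days old by the sample labels, that had grown in continuous light at 22°C and had then spent 1 day in blue light. The 4 groups were *cry1* mutants after 2 h at 44°C, WT after 2 h at 44°C, *cry1* mutants kept at 22°C and WT kept at 22°C, with 3 replicates in each and 12 libraries in all. The *cry1* mutants lack cryptochrome 1, a blue-light receptor. The labels name no allele, and the methods list *cry1-304* among the mutants of the study. The methods describe the replicates as independent, and name white light and MS medium with sucrose for the growth of the seedlings. The comparisons ask how heat changed these genes in each genotype, how *cry1* mutants differed from WT at each temperature, and whether the heat response differed between genotypes.

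Rubisco fixes CO2 in the chloroplast stroma. Its large subunit is encoded in the plastid genome and its small subunit by the nuclear *RBCS* genes, of which *Arabidopsis* has *RBCS1A* on one chromosome and *RBCS1B*, *RBCS2B* and *RBCS3B* side by side on another. Rubisco activase, the product of *RCA*, is an ATPase that frees inhibited Rubisco sites of bound sugar phosphates, and it is known as a heat-sensitive step of photosynthesis. In the cycle that follows, GAPA and GAPB form the NADPH-dependent glyceraldehyde-3-phosphate dehydrogenase, CFBP (fructose-1,6-bisphosphatase) and SBPASE (sedoheptulose-1,7-bisphosphatase) remove phosphates in the regeneration of the acceptor, and PRK (phosphoribulokinase) makes ribulose-1,5-bisphosphate. These nuclear genes are known as light-induced genes, and the G-box (CACGTG), bound by bZIP factors such as HY5 and by bHLH factors such as the PIFs, was first described in *RBCS* promoters, together with the I-box.

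The promoter letters are shown because HY5 acts downstream of CRY1 and binds G-box sequences. In the reference assembly TAIR10.1 (RefSeq), the 300 bases before the innermost annotated transcript start hold a G-box in 6 of the 10 genes, *RBCS1A*, *RBCS2B*, *RBCS3B*, *RCA*, *PRK* and *CFBP*, against 7.38% of 27443 protein-coding genes with a window of the same length. The I-box core GATAAG, searched on both strands, lies in these windows in all 4 *RBCS* genes and in *CFBP*, against 14.8% of genes. The G-box and the I-box core were searched as these exact letters and share no positions with each other. The outermost annotated start lies 243 bases further upstream in *RBCS1A*, 73 in *RBCS1B*, 226 in *RBCS3B*, 173 in *RCA* and 55 in *CFBP*. Where that start is used instead, only *RBCS2B*, *PRK* and *CFBP* have a G-box in the window, against 7.09% of genes. Only *RBCS2B*, *RCA* and *CFBP* have an I-box core there, against 14.5% of genes. The stretches around these elements are given 5′ to 3′ on the strand of the gene, with the G-box and the I-box core (GATAAG or its reverse complement CTTATC) in capitals.
*RBCS1A*, chr1:25049491-25049520, minus strand: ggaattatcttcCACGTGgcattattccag
*RBCS2B*, chr5:15382177-15382206, minus strand: ggagttttctgcCACGTGatCTTATCctag
*RBCS3B*, chr5:15378506-15378535, minus strand: ggagttttctgcCACGTGgcCTTATCctag
*RCA*, chr2:16573579-16573608, minus strand: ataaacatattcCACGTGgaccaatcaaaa
*PRK*, chr1:11532014-11532043, plus strand: attagaatctccCACGTGtcaattcaaata
*CFBP*, chr3:20016803-20016832, plus strand: taagagcaaagcCACGTGtcataacacaag
*RBCS1B*, with no G-box in either window and with 2 overlapping I-box cores before its innermost start, chr5:15385308-15385337, minus strand: tcacaaaagaaaGATAAGATAAGggtgtca
The *RBCS3B* stretch is identical to that of *RBCS2B* at 28 of 30 bases, and the *RBCS1A* stretch at 22 of 30. No G-box or I-box core was found in either window of *SBPASE*, *GAPA* and *GAPB*. A match of letters is a description of the sequence and no measure of binding.

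Total counts were 15228953 to 16150217 per library in *cry1* at 44°C, 10539271 to 11967963 in WT at 44°C, 18616049 to 21752824 in *cry1* at 22°C and 12395997 to 14295796 in WT at 22°C. *CRY1* itself had 0 to 5 counts in the *cry1* libraries and 1774 to 2867 in the WT libraries, so each library matched its genotype label. Levels are given as CPM, counts scaled to a common library total, and changes as log2 fold changes with their standard error (SE) and an adjusted p from the quasi-likelihood test of edgeR over 21314 genes, with a call at an adjusted p under 0.05. On this scale the median tested gene lay at -1.24 for heat in *cry1* mutants and at -0.86 for heat in WT. It lay at -0.11 for *cry1* against WT at 44°C, at 0.26 for *cry1* against WT at 22°C, and at -0.33 for the difference between the heat responses. Scaling by TMM brings these medians to -0.08, -0.07, 0.04, 0.02 and 0.04. TMM centres most genes near 0 by design, so these values do not show which scale is right. Which scale is nearer the true levels was not tested, and changes below are set beside the median gene. All 10 genes passed the filter on low values.

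The 10 genes fell with heat in both genotypes. Together they took 0.691%, 0.669% and 0.689% of all counts in *cry1* at 44°C and 0.773%, 0.862% and 0.768% in WT at 44°C, against 3.15%, 2.96% and 3.08% in *cry1* at 22°C and 4.20%, 4.36% and 4.38% in WT at 22°C. In *cry1* mutants 10 of 10 were called lower, where 72.8% of all tested genes were, and in WT 10 of 10, where 61.1% were. None was called higher, where 11.3% of tested genes were in *cry1* mutants and 15.3% in WT. Their median log2 fold change was -3.09 in *cry1* mutants and -2.78 in WT, and 9 of 10 lay below the median gene in each genotype, *GAPA* being the exception in both. With TMM scaling 34.5% of tested genes were higher and 37.3% lower with heat in *cry1* mutants, and 33.7% higher and 36.3% lower in WT. On that scale 9 of the 10 genes were still lower in both genotypes, by smaller steps (log2 fold changes of -4.87 to -0.32 in *cry1* mutants and -4.42 to -1.29 in WT), while *GAPA* was not called in WT and was higher in *cry1* mutants.

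**Figure D1:**
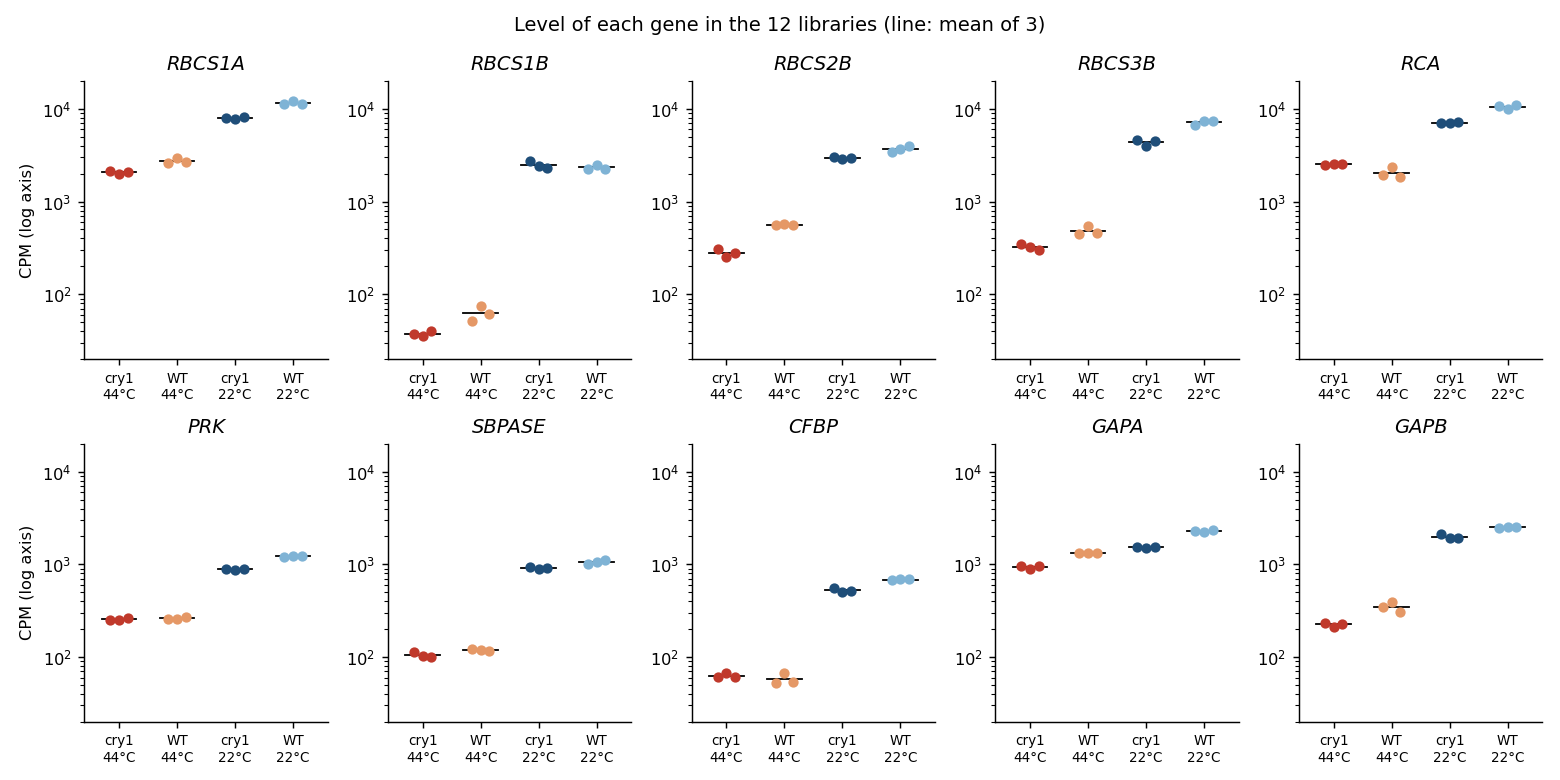
CPM on a log axis of each of the 10 genes in the 12 libraries, 1 point per library and a line at the mean of 3, with *cry1* 44°C, WT 44°C, *cry1* 22°C and WT 22°C from left to right. All genes sit lower at 44°C, *RBCS1B* by the largest step (37.6 CPM in *cry1* and 62.8 CPM in WT at 44°C, against 2469 and 2336 CPM at 22°C) and *GAPA* by the smallest.

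The *RBCS* genes, which encode the small subunit, differed widely in their response. *RBCS1A* (TAIR10.1 chromosome 1, 25048158 to 25049667, minus strand) had 2118, 1992 and 2097 CPM in *cry1* at 44°C and 2637, 2933 and 2686 CPM in WT at 44°C, against 8014, 7694 and 8087 CPM in *cry1* at 22°C and 11285, 12290 and 11356 CPM in WT at 22°C. The 4 groups did not overlap, and their order was WT above *cry1* at either temperature. It fell by 1.94 on the log2 scale with heat in *cry1* mutants (SE 0.08, adjusted p = 1.4e-15) and by 2.08 in WT (SE 0.08, adjusted p = 6.7e-16). It remained the most abundant of the 10 per length at 44°C, at 1632 ± 53.2 FPKM in *cry1* mutants and 2170 ± 125 FPKM in WT (SD, n = 3 each).

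*RBCS1B* (chromosome 5, 15383167 to 15385320, minus strand) stood at the other end. It had 37.2, 35.1 and 40.6 CPM in *cry1* at 44°C and 51.8, 74.9 and 61.6 CPM in WT at 44°C, against 2715, 2394 and 2297 CPM in *cry1* at 22°C and 2239, 2511 and 2258 CPM in WT at 22°C. Heat thus lowered it 65.6-fold in *cry1* mutants (log2 fold change -6.04, SE 0.13, adjusted p = 4.5e-19) and 37.2-fold in WT (-5.22, SE 0.12, adjusted p = 2.7e-18). Only 0.197% of tested genes had a lower log2 fold change in *cry1* mutants and 0.718% in WT. In FPKM its place among all genes was 3548 in *cry1* and 2419 in WT at 44°C, against 33 in *cry1* and 50 in WT at 22°C.

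*RBCS2B* and *RBCS3B*, its neighbours on chromosome 5 (15380907 to 15382071 and 15376988 to 15378642, minus strand), lay between these extremes. *RBCS2B* had 307, 250 and 281 CPM in *cry1* at 44°C and 563, 566 and 561 CPM in WT at 44°C, against 2999, 2860 and 2980 CPM in *cry1* at 22°C and 3429, 3670 and 3933 CPM in WT at 22°C. *RBCS3B* had 351, 326 and 301 CPM in *cry1* at 44°C and 447, 541 and 457 CPM in WT at 44°C, against 4636, 3990 and 4494 CPM in *cry1* at 22°C and 6719, 7461 and 7411 CPM in WT at 22°C. In both genes every *cry1* library lay below every WT library of the same temperature. The log2 fold change of *RBCS2B* with heat was -3.40 in *cry1* mutants (SE 0.09) and -2.71 in WT (SE 0.09), and that of *RBCS3B* was -3.75 (SE 0.10) and -3.9 (SE 0.10), with adjusted p of 5.8e-17 or less from edgeR.

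Reads of the *RBCS* genes can be shared. The coding sequences of *RBCS1B*, *RBCS2B* and *RBCS3B* are 94.12% to 97.25% identical to each other, while that of *RBCS1A* is 87.7% to 90.11% identical to theirs. Of the 50-base stretches of coding sequence, 51.3% in *RBCS1B*, 38% in *RBCS2B* and 40.6% in *RBCS3B* occur in another of the 4 genes, against 3.64% in *RBCS1A*. Of the 100-base stretches, 29.3% in *RBCS1B* and 28.4% in *RBCS3B* do so, against 0% in *RBCS2B* and *RBCS1A*. The division of counts within the chromosome 5 cluster therefore rests on the way RSEM shared out such reads, and the 3 genes were also summed. The sum fell by 3.93 with heat in *cry1* mutants (SE 0.09, adjusted p = 2.7e-19) and by 3.58 in WT (SE 0.09, adjusted p = 1.1e-18), against log2 fold changes of -1.94 and -2.08 for *RBCS1A*.

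As a result the make-up of the *RBCS* transcripts differed between temperatures, a measure that does not depend on the scaling of the libraries. *RBCS1A* made up 75.3%, 76.5% and 77.1% of *RBCS* counts in *cry1* at 44°C and 71.3% in each WT library at 44°C, against 43.6%, 45.4% and 45.3% in *cry1* at 22°C and 47.7%, 47.4% and 45.5% in WT at 22°C. *RBCS1B* made up 1.32% to 1.49% in *cry1* at 44°C and 1.40% to 1.82% in WT at 44°C, against 12.9% to 14.8% in *cry1* at 22°C and 9.05% to 9.68% in WT at 22°C. *RBCS3B* fell to 12% ± 0.838 in *cry1* and 12.5% ± 0.60 in WT at 44°C, against 24.7% ± 0.953 and 28.9% ± 0.673 at 22°C (SD, n = 3 each). The share of *RBCS2B* was 10.3% ± 0.664 in *cry1* at 44°C, against 16.6% ± 0.282 in *cry1* at 22°C, and in WT 14.6% ± 0.767 at 44°C against 14.8% ± 0.848 at 22°C, which overlapped. The ratio of *RBCS1A* to *RBCS1B* counts was 51.7 to 56.9 in *cry1* and 39.2 to 50.9 in WT at 44°C, against 2.95 to 3.52 in *cry1* and 4.89 to 5.04 in WT at 22°C. It was 17.1-fold higher with heat in *cry1* mutants and 8.88-fold higher in WT (two-sided exact permutation p = 0.1 for each, the smallest that 3 against 3 libraries can give, and 0.124 when adjusted over the 36 ratio comparisons made).

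**Figure D2:**
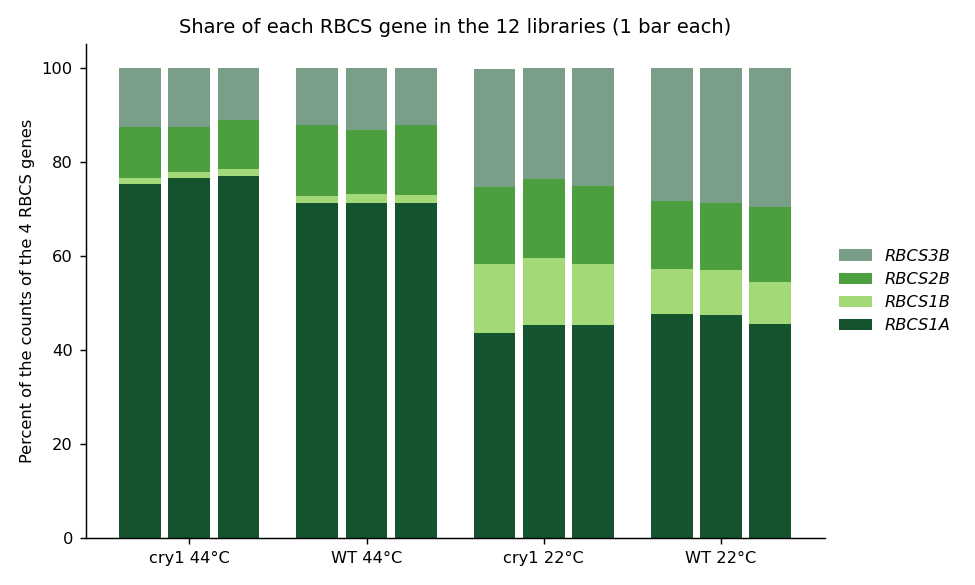
Percent of the summed counts of the 4 *RBCS* genes held by each gene, 1 stacked bar per library, with the groups *cry1* 44°C, WT 44°C, *cry1* 22°C and WT 22°C from left to right. *RBCS1A* takes 71.3% to 77.1% at 44°C against 43.6% to 47.7% at 22°C, and the *RBCS1B* band shrinks to under 2% at 44°C.

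*RCA* (chromosome 2, 16570746 to 16573692, minus strand), which encodes Rubisco activase, was called in opposite directions between the genotypes at 44°C and at 22°C. It had 2479, 2567 and 2560 CPM in *cry1* at 44°C and 1917, 2340 and 1836 CPM in WT at 44°C, against 7100, 6968 and 7199 CPM in *cry1* at 22°C and 10701, 9952 and 11002 CPM in WT at 22°C. At 44°C every *cry1* library lay above every WT library, and at 22°C every *cry1* library lay below. Heat lowered *RCA* 2.80-fold in *cry1* mutants (log2 fold change -1.48, SE 0.09, adjusted p = 8.8e-13) and 5.19-fold in WT (-2.38, SE 0.09, adjusted p = 9.1e-16). With TMM scaling the log2 fold changes of *RCA* were -0.32 in *cry1* mutants (adjusted p = 0.004) and -1.59 in WT (adjusted p = 3.7e-12). Relative to WT, *RCA* in *cry1* mutants was higher at 44°C (0.32, SE 0.08, adjusted p = 0.0075) and lower at 22°C (-0.57, SE 0.08, adjusted p = 3.9e-05). The response to heat in *cry1* less that in WT was 0.89 (SE 0.12, adjusted p = 2.0e-05), larger than in 96.0% of tested genes. Without WT replicate 3 at 44°C the *RCA* difference at 44°C was 0.25 with an adjusted p of 0.05 after rounding.

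The ratio of *RCA* to the 4 *RBCS* genes, which needs no scaling, was higher in *cry1* mutants at 44°C and overlapped between genotypes at 22°C. It was 0.881, 0.986 and 0.941 in *cry1* at 44°C and 0.518, 0.569 and 0.488 in WT at 44°C, a 1.79-fold difference with no overlap (two-sided exact permutation p = 0.1, adjusted p = 0.124). At 22°C it was 0.387, 0.411 and 0.403 in *cry1* and 0.452, 0.384 and 0.441 in WT (exact permutation p = 0.4). These ratios are of counts and not of molecules, since the genes differ in length.

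**Figure D3:**
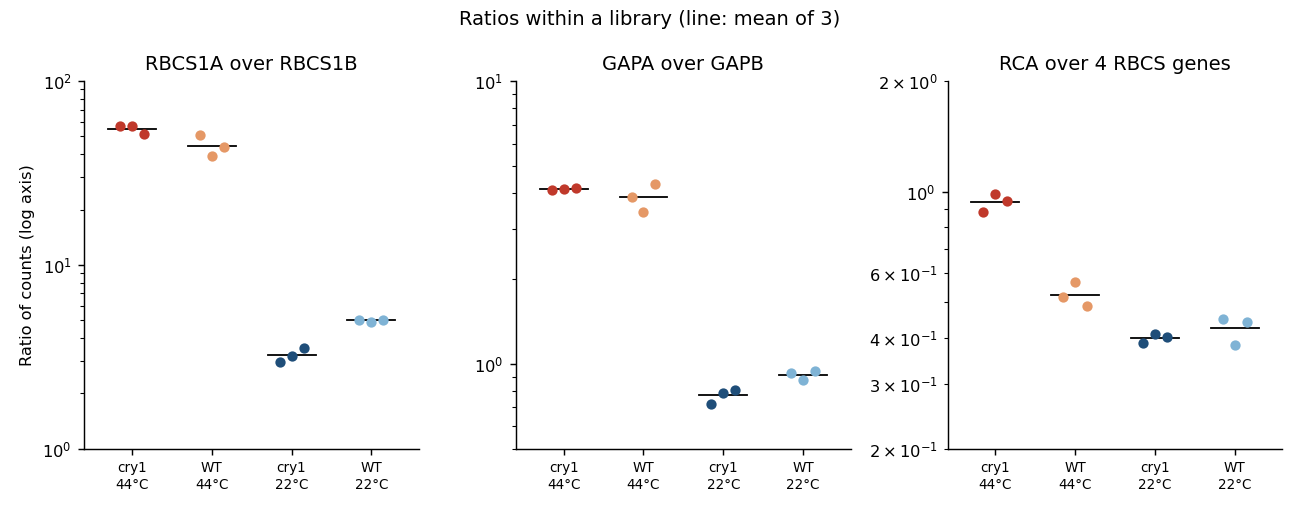
Ratios of counts within a library on log axes for *RBCS1A* over *RBCS1B*, *GAPA* over *GAPB* and *RCA* over the 4 *RBCS* genes, 1 point per library and a line at the mean of 3, with *cry1* 44°C, WT 44°C, *cry1* 22°C and WT 22°C from left to right. The first pair of genes parts most with heat (51.7 to 56.9 in *cry1* at 44°C against 2.95 to 3.52 at 22°C), and *RCA* over *RBCS* sits highest in *cry1* at 44°C (0.881 to 0.986).

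The subunits of plastid glyceraldehyde-3-phosphate dehydrogenase responded unequally. *GAPA* (chromosome 3, 9794862 to 9797045, plus strand) had 959, 883 and 953 CPM in *cry1* at 44°C and 1339, 1329 and 1332 CPM in WT at 44°C, against 1526, 1506 and 1549 CPM in *cry1* at 22°C and 2269, 2228 and 2351 CPM in WT at 22°C. *GAPB* (chromosome 1, 16127353 to 16129895, plus strand) had 234, 212 and 227 CPM in *cry1* at 44°C and 344, 388 and 309 CPM in WT at 44°C, against 2120, 1910 and 1914 CPM in *cry1* at 22°C and 2456, 2548 and 2499 CPM in WT at 22°C. In CPM *GAPA* stood above *GAPB* in every library at 44°C and below it in every library at 22°C. Per length they overlapped in WT at 22°C (1303 ± 35.9 FPKM for *GAPA* and 1349 ± 24.6 FPKM for *GAPB*, SD, n = 3 each). The log2 fold change of *GAPB* with heat was -3.14 in *cry1* mutants (SE 0.09, adjusted p = 1.0e-17) and -2.85 in WT (SE 0.09, adjusted p = 4.7e-17).

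For *GAPA* the direction depends on the scale. With library totals it fell by 0.71 in *cry1* mutants (SE 0.07, adjusted p = 3.7e-09) and by 0.78 in WT (SE 0.07, adjusted p = 1.4e-09), which is 0.53 and 0.08 above the median gene. With TMM scaling its log2 fold change was 0.45 in *cry1* mutants (adjusted p = 5.6e-06) and 0.01 in WT (adjusted p = 0.87). The ratio of *GAPA* to *GAPB* counts, which needs no scale, was 4.10 to 4.20 in *cry1* and 3.43 to 4.31 in WT at 44°C, against 0.720 to 0.809 in *cry1* and 0.874 to 0.941 in WT at 22°C. Its second copy *GAPA2* (AT1G12900) fell by 2.87 in *cry1* mutants and by 3.18 in WT, and the ratio of *GAPA* to *GAPA2* counts was 7.97 ± 0.323 in *cry1* and 9.26 ± 0.942 in WT at 44°C, against 1.78 ± 0.0443 and 1.73 ± 0.0634 at 22°C (SD, n = 3 each). How reads shared by *GAPA* and *GAPA2* were divided was not examined.

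The regeneration enzymes all fell with heat. *PRK* (chromosome 1, 11532199 to 11534639, plus strand) had 250, 252 and 265 CPM in *cry1* at 44°C and 254, 259 and 271 CPM in WT at 44°C, against 898, 863 and 884 CPM in *cry1* at 22°C and 1186, 1230 and 1230 CPM in WT at 22°C. The genotypes overlapped at 44°C and stood apart at 22°C. *PRK* fell by 1.79 in *cry1* mutants (SE 0.07, adjusted p = 1.4e-15) and by 2.22 in WT (SE 0.07, adjusted p = 6.9e-17).

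*SBPASE* (chromosome 3, 20709294 to 20711640, plus strand) had 113, 103 and 101 CPM in *cry1* at 44°C and 123, 120 and 117 CPM in WT at 44°C, against 942, 898 and 921 CPM in *cry1* at 22°C and 1016, 1053 and 1100 CPM in WT at 22°C. Its log2 fold change was -3.12 in *cry1* mutants and -3.14 in WT (SE 0.08 each), nearly the same step. *CFBP* (chromosome 3, 20016837 to 20018822, plus strand) had 60.4, 66.6 and 61.0 CPM in *cry1* at 44°C and 53.0, 67.4 and 54.3 CPM in WT at 44°C, against 550, 506 and 512 CPM in *cry1* at 22°C and 676, 692 and 686 CPM in WT at 22°C. WT replicate 2 was the highest WT library at 44°C for *CFBP*, as it was for *RCA*, *GAPB* and the 4 *RBCS* genes, and its green mesophyll markers summed to 4677 CPM, against 3965 and 3669 CPM in WT replicates 1 and 3. Without it, *RCA* in *cry1* against WT at 44°C stood at 0.43 and *CFBP* at 0.22 (adjusted p = 0.058 from edgeR), and no call at 44°C changed. *CFBP* fell by 3.06 in *cry1* mutants (SE 0.09) and by 3.55 in WT (SE 0.09), with adjusted p of 1.7e-17 or less for both genes in edgeR. *PRK* therefore stood higher beside the bisphosphatases at 44°C: the ratio of *PRK* to *SBPASE* counts was 2.43 ± 0.217 in *cry1* and 2.18 ± 0.123 in WT, against 0.958 ± 0.00403 and 1.15 ± 0.0291 at 22°C (SD, n = 3 each).

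**Figure D4:**
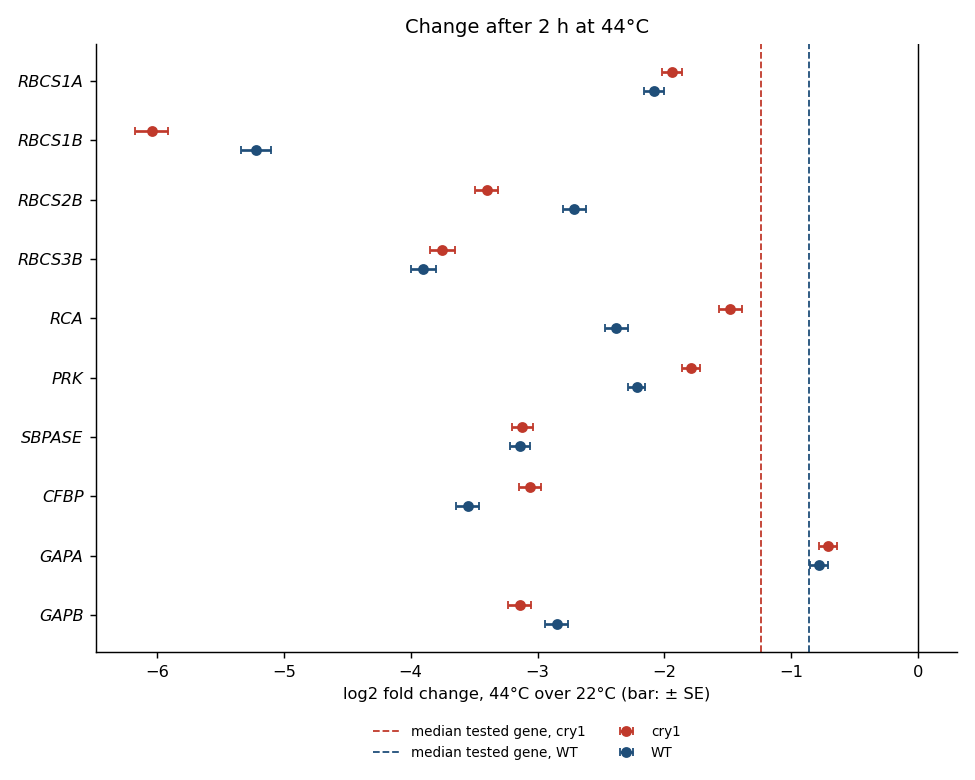
Log2 fold change of each gene at 44°C over 22°C in *cry1* (red, upper point) and WT (blue, lower point) with bars of ± SE, and dashed lines at the median tested gene (-1.24 in *cry1*, -0.86 in WT). The points run from -6.04 for *RBCS1B* in *cry1* to -0.71 for *GAPA* in *cry1*, and *GAPA* alone lies right of its median line.

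Measured per length, the order of the genes changed with heat. In FPKM, *RBCS1A* stood first and *RCA* second of the 10 in *cry1* mutants at 44°C, followed by *GAPA*, *RBCS2B*, *RBCS3B*, *PRK*, *GAPB*, *SBPASE*, *CFBP* and *RBCS1B*, with no overlap between neighbours. In WT at 44°C the order was the same except that *GAPB* stood above *PRK* and that *CFBP* (35.3 ± 4.82 FPKM) and *RBCS1B* (33.1 ± 6.11 FPKM) overlapped (SD, n = 3 each). At 22°C *GAPA* stood at place 7 in *cry1* mutants and 6 in WT, and *RBCS1B* at place 5 and 7, though in WT at 22°C *GAPA* (1303 ± 35.9 FPKM) overlapped with *RBCS1B* (1233 ± 80.1 FPKM) as well as with *GAPB*, and *PRK* with *SBPASE*. *RBCS2B* and *RBCS3B* overlapped in *cry1* mutants at 22°C (3151 ± 80.6 and 3102 ± 241 FPKM), as did *RBCS3B* and *RCA* in WT at 22°C (5104 ± 294 and 5022 ± 257 FPKM). FPKM use the summed exon length of the annotation, which is 1894 bases for *RBCS1B* and 935 for *RBCS2B*.

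Without heat, the genes stood lower in *cry1* mutants than in WT. At 22°C 9 of 10 were called lower in *cry1* mutants, where 7.35% of tested genes were, and none was called higher in edgeR, in DESeq2 or at an unadjusted p under 0.05, where 31.6% were called higher in edgeR. With TMM scaling, where 7.8% of tested genes were higher and 12.8% lower, the same count of 9 was lower. The median of the 10 was -0.43 on the log2 scale, and all 10 lay below the median gene at 0.26. *RBCS3B* had the largest difference at -0.72 (SE 0.09, adjusted p = 6.1e-06), a level 1.65-fold lower than in WT. *GAPA* stood at -0.58 (SE 0.07, adjusted p = 3.5e-06), *RCA* at -0.57 (SE 0.08) and *RBCS1A* at -0.55 (SE 0.07, adjusted p = 1.3e-05). *PRK* (-0.46), *CFBP* (-0.39), *GAPB* (-0.34) and *RBCS2B* (-0.32) were called lower with adjusted p of 0.004 or less from edgeR.

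*RBCS1B* was not called at 22°C (0.08, SE 0.10, adjusted p = 0.56), and the libraries of the genotypes overlapped. With TMM scaling its log2 fold change was -0.15 (adjusted p = 0.4). The *SBPASE* difference was the smallest called (-0.20, SE 0.07, adjusted p = 0.031), and the call was lost, with adjusted p of 0.062 to 0.11, when *cry1* replicate 2 or 3 or WT replicate 2 or 3 at 22°C was left out. The 6 genes with a G-box near their innermost start, whose stretches are printed above, had log2 fold changes of -0.72 to -0.32 at 22°C, and those without one, *RBCS1B*, *SBPASE*, *GAPA* and *GAPB*, had values of -0.58 to 0.08. The ranges overlapped.

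At 44°C the calls went in both directions. All 4 *RBCS* genes and both *GAP* genes were called lower in *cry1* mutants, 6 of 10 where 17.3% of tested genes were, 1 gene (*RCA*) was called higher, where 8.63% were, and *PRK*, *SBPASE* and *CFBP* did not pass. With TMM scaling, where 14.6% of tested genes were higher and 10.5% lower, 6 were lower and 1 higher. *RBCS2B* had the largest difference at -1.01 (SE 0.08, adjusted p = 5.4e-08), a level 2.02-fold lower in *cry1* mutants than in WT. *RBCS1B* stood at -0.74 (SE 0.11, adjusted p = 6.8e-05), *GAPB* at -0.63 (SE 0.08, adjusted p = 1.4e-05), *RBCS3B* at -0.56 (SE 0.09, adjusted p = 9.5e-05), *GAPA* at -0.52 (SE 0.07, adjusted p = 1.3e-05) and *RBCS1A* at -0.41 (SE 0.07, adjusted p = 0.00029). The sum of the chromosome 5 *RBCS* genes stood at -0.79 (SE 0.08, adjusted p = 7.6e-07). *PRK* (-0.03, SE 0.07, adjusted p = 0.79) and *CFBP* (0.10, SE 0.09, adjusted p = 0.44) overlapped between genotypes. *SBPASE* (-0.18, SE 0.07, adjusted p = 0.074) did not overlap, and it passed without *cry1* replicate 1 at 44°C (adjusted p = 0.039).

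**Figure D5:**
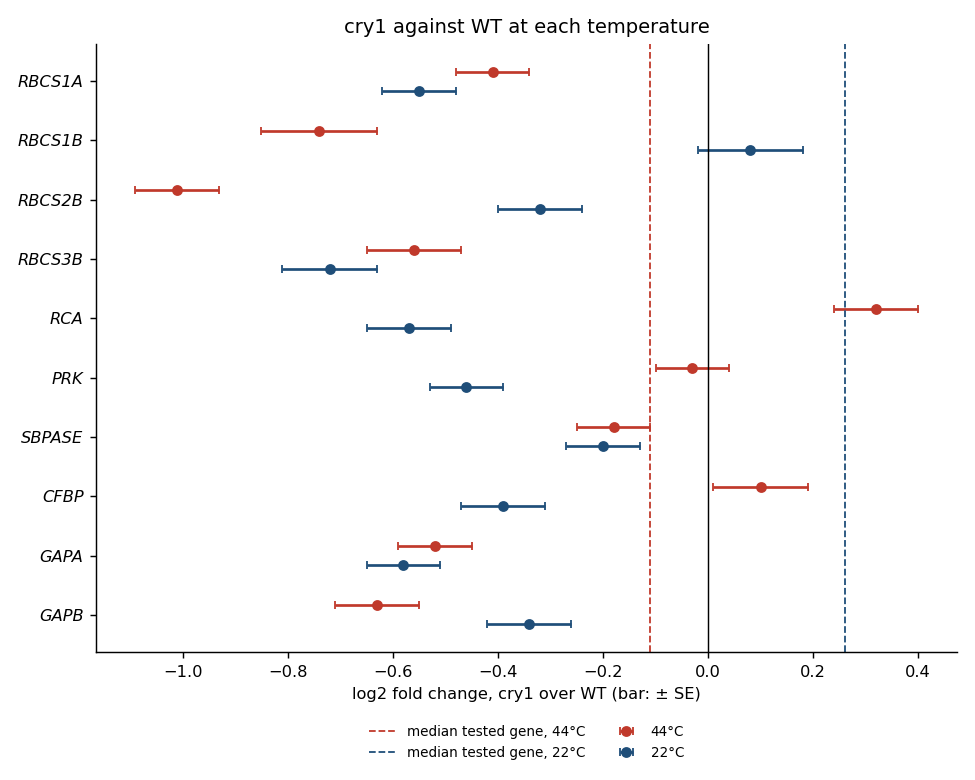
Log2 fold change of each gene in *cry1* over WT at 44°C (red, upper point) and at 22°C (blue, lower point) with bars of ± SE, and dashed lines at the median tested gene (-0.11 at 44°C, 0.26 at 22°C). *RCA* lies at 0.32 at 44°C and at -0.57 at 22°C, while *RBCS1A*, *RBCS2B*, *RBCS3B*, *GAPA* and *GAPB* lie below 0 at both temperatures.

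The heat response differed between genotypes for 5 of the 10 genes. The response of *cry1* minus that of WT was above 0 for 3 genes, *RCA*, *CFBP* (0.49, SE 0.12, adjusted p = 0.0047) and *PRK* (0.43, SE 0.10, adjusted p = 0.0022), where 3.88% of tested genes were called higher. It was below 0 for 2 genes, *RBCS1B* (-0.82, SE 0.15, adjusted p = 0.00057) and *RBCS2B* (-0.69, SE 0.11, adjusted p = 0.00017), where 24.1% of tested genes were called lower, a share above that of the 10. The sum of the chromosome 5 *RBCS* genes, which does not depend on how reads were shared out among them, stood at -0.35 (SE 0.11, adjusted p = 0.023), which is -0.02 from the median gene. *RBCS1A* (0.14), *RBCS3B* (0.16), *SBPASE* (0.02), *GAPA* (0.06) and *GAPB* (-0.29, adjusted p = 0.067) did not pass. The median gene lay at -0.33, and with TMM scaling, where 11.4% of tested genes were higher and 5.4% lower, 7 of the 10 genes were called higher and none lower. *RCA* (1.27 with TMM), *CFBP* (0.87) and *PRK* (0.81) were called on both scales. *RBCS1A* (0.52), *RBCS3B* (0.53), *SBPASE* (0.39) and *GAPA* (0.44) were called with TMM and not with library totals, and *RBCS1B* (-0.45, adjusted p = 0.083) and *RBCS2B* (-0.32, adjusted p = 0.06) the other way round.

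Markers of the tissues in a seedling were measured beside these genes. The 5 markers of green mesophyll, the chlorophyll-binding *LHCB1.1*, *LHCB2.1*, *LHCB3* and *LHCA1* and the plastid carbonic anhydrase *CA1*, summed to 2521 to 2647 CPM in *cry1* at 44°C and 3669 to 4677 CPM in WT at 44°C, against 6169 to 7500 CPM in *cry1* at 22°C and 13387 to 13709 CPM in WT at 22°C. All 5 were called lower in *cry1* mutants at 22°C and 4 of 5 at 44°C, where 7.35% and 17.3% of tested genes were. With heat 5 of 5 were lower in each genotype, where 72.8% of tested genes were in *cry1* mutants and 61.1% in WT. None of the 5 was at 0 in any group. In the difference between responses 3 of 5 were higher, with a median of 0.57 for the 5, where 3.88% of tested genes were. Of the 10 genes, *RCA*, *CFBP* and *PRK* were higher there too, *RBCS1B* and *RBCS2B* were lower, and 5 did not pass. With TMM scaling 3 of the 5 were higher with heat in *cry1* mutants, where 34.5% of tested genes were. On that scale 2 of 5 were lower in *cry1* mutants at 44°C, where 10.5% of genes were. In the difference between responses 5 of 5 were higher with TMM (median 0.95), where 11.4% of genes were. The 10 root markers summed to 36.7 to 41.9 CPM in *cry1* at 44°C and 37.0 to 42.9 CPM in WT at 44°C, against 167 to 186 CPM in *cry1* at 22°C and 129 to 136 CPM in WT at 22°C, with *NRT2.1* at or near 0 in every group. At 22°C *PHO1* held the largest part (72.9 CPM in *cry1* and 39.8 in WT). Of 9 tested, 3 lay lower in *cry1* mutants at 22°C, *COBL9* (6.74 against 8.56 CPM), *EXPA7* (9.08 against 13.9) and *PRP3* (6.85 against 11.1). There 2 were called higher and 1 lower (31.6% and 7.35% of tested genes), and with TMM scaling 2 and 3 (7.8% and 12.8%). With heat 9 of 9 were called lower in *cry1* mutants and 7 of 9 in WT, where 72.8% and 61.1% of tested genes were. The 4 markers of epidermis and guard cells summed to 76.5 to 81.2 CPM in *cry1* at 44°C and 66.9 to 75.9 CPM in WT at 44°C, against 152 to 172 CPM in *cry1* at 22°C and 148 to 157 CPM in WT at 22°C. *ATML1* held most of each sum (74.3 CPM in *cry1* and 64.2 in WT at 44°C, 134 and 111 at 22°C). *FAMA* stood lower in *cry1* mutants, at 1.81 against 4.97 CPM at 44°C and 12.4 against 25.8 CPM at 22°C. *KAT1* stood higher in *cry1* mutants at 44°C (1.62 against 0.834 CPM). At each temperature 1 of these 4 markers was called higher in *cry1* mutants and 1 lower. Of tested genes 31.6% were higher and 7.35% lower at 22°C, and 8.63% and 17.3% at 44°C. With TMM scaling 0 of the 4 were higher and 1 lower at 22°C, and 2 higher and 1 lower at 44°C. The TMM shares of tested genes were 7.8% and 12.8% at 22°C, and 14.6% and 10.5% at 44°C. *SUC2*, the marker of phloem companion cells, had 52.9 to 73.3 CPM in *cry1* at 44°C and 30.4 to 34.8 CPM in WT at 44°C, against 156 to 210 CPM in *cry1* at 22°C and 132 to 152 CPM in WT at 22°C. In *cry1* against WT *SUC2* was called higher at 44°C (0.93) and at 22°C (0.40). With TMM scaling it stood at 1.08 at 44°C, and at 22°C it was not called (0.17, adjusted p = 0.35 from edgeR). The part of these tissues in the results above was not tested, and in whole seedlings fewer cells of a type and less RNA per cell cannot be told apart.

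Most of the other plastid enzymes of the cycle also fell with heat. Of 14 listed, 13 were measured (*RBCL*, the plastid gene of the large subunit, was not analysed here). With heat 12 of 13 were lower in *cry1* mutants and 12 of 13 in WT, where 72.8% and 61.1% of all tested genes were, with medians of -1.90 and -1.83. *RPI3* (AT3G04790), a ribose-5-phosphate isomerase, fell by 4.06 in *cry1* mutants and by 3.88 in WT, and had 14.0 ± 1.34 CPM in *cry1* and 22.0 ± 3.16 CPM in WT at 44°C, against 233 ± 5.40 and 326 ± 12.3 CPM at 22°C (SD, n = 3 each). *FBA3* (AT2G01140), a plastid aldolase, was the exception in WT at 0.48 (adjusted p = 5.5e-06), and stood at -0.19 in *cry1* mutants (adjusted p = 0.021), where TMM scaling turned it to 0.98. At 22°C 10 of 13 were lower in *cry1* mutants, where 7.35% of tested genes were. The 2 higher were *TKL2* (0.74, a transketolase) and *FBA3* (0.32), where 31.6% of tested genes were higher. *FBA2* (-0.63, an aldolase) and *GAPA2* (-0.62) had the largest drops. At 44°C 8 of 13 were lower, where 17.3% of tested genes were, and 5 did not pass. The lowest were *RPI3* (-0.66) and *PGK1* (-0.48, a phosphoglycerate kinase). In the difference between responses, *FBA1* (0.46) was higher, and *TKL2* (-0.92), *FBA3* (-0.66) and *TKL1* (-0.34) were lower. Of tested genes 3.88% were called higher and 24.1% lower there. With TMM scaling 10 of 13 were lower with heat in each genotype, 3 higher in *cry1* mutants and 2 in WT, 11 lower and 1 higher (*TKL2*) in *cry1* mutants at 22°C, 6 lower and 1 higher (*FBA1*, 0.30) at 44°C, and 7 higher and 1 lower (*TKL2*) in the difference between responses, where *TKL1* stood at 0.04.

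Most regulators of the cycle fell with heat. Of 13, 11 were lower and 2 higher in *cry1* mutants, and 12 lower and 1 higher in WT, beside the same shares of all genes, with medians of -1.46 and -1.37. *TRXF1* (AT3G02730), a thioredoxin f that reduces the light-activated enzymes of the cycle, fell by 3.80 in *cry1* mutants and by 4.01 in WT. CP12 proteins bind PRK and GAPDH into an inactive complex. *CP12-2* (AT3G62410) fell in both (-3.01 in *cry1* mutants and -3.34 in WT), while *CP12-1* (AT2G47400) had 482, 457 and 500 CPM in *cry1* at 44°C and 456, 466 and 495 CPM in WT at 44°C, against 359, 394 and 336 CPM in *cry1* at 22°C and 582, 549 and 533 CPM in WT at 22°C. *CP12-1* rose in *cry1* mutants (0.40, adjusted p = 5.2e-05), stood at -0.23 in WT (adjusted p = 0.0091), where TMM scaling turned it to 0.56, and differed between the responses by 0.63 (adjusted p = 0.00023). *TRXM3* (AT2G15570), an m-type thioredoxin, rose in both (0.61 and 0.90). *TRXF2* (AT5G16400) also differed between the responses, by 0.44 (adjusted p = 0.035). At 22°C 10 of 13 regulators were lower in *cry1* mutants, where 7.35% of tested genes were, and 3 did not pass. The lowest called were *TRXF2* (-0.89) and *CP12-1* (-0.61). At 44°C 8 of 13 were lower, where 17.3% of tested genes were, and 5 did not pass. The lowest called were *CP12-3* (-0.97) and *NTRC* (-0.87), a thioredoxin reductase. With TMM scaling 8 of 13 were lower with heat in *cry1* mutants and 9 in WT, and 2 higher in each, where 37.3% and 36.3% of tested genes were lower. In *cry1* mutants 12 were lower at 22°C (12.8% of tested genes) and 5 at 44°C (10.5%), where *CP12-3* did not pass. In the difference between responses 7 were higher (11.4% of tested genes).

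The factors that fold and assemble Rubisco held genes that moved the other way. Of 15, 10 were lower and 3 higher with heat in *cry1* mutants, and 9 lower and 2 higher in WT, shares near those of all tested genes (72.8% lower in *cry1* mutants and 61.1% in WT). *CPN60B2* (AT3G13470), a beta subunit of the plastid chaperonin, had 1622, 1768 and 1818 CPM in *cry1* at 44°C and 1264, 1292 and 1368 CPM in WT at 44°C, against 178, 154 and 177 CPM in *cry1* at 22°C and 141, 141 and 179 CPM in WT at 22°C. It rose by 3.35 in *cry1* mutants (SE 0.10, adjusted p = 1.9e-17) and by 3.09 in WT (SE 0.10, adjusted p = 7.4e-17). *CPN60A1* (AT2G28000), an alpha subunit, rose by 1.1 and 0.86. *CPN60B4* (AT1G26230), another beta subunit, fell in both (-4.49 in *cry1* mutants and -4.48 in WT). Its level at 44°C was low, at 0.657 to 1.55 CPM in *cry1* and 0.654 to 1.25 CPM in WT. At 44°C *CPN60B3* (0.55) and *CPN60B2* (0.41) had higher levels in *cry1* mutants. *BSD2* (-0.84), a chaperone of Rubisco assembly, and *CPN60A2* (-0.83) were lower, among 3 higher and 7 lower of 15. Of tested genes 8.63% were higher and 17.3% lower there. At 22°C 6 of 15 were lower, *RBCX2* (-0.68) and *RAF2* (-0.38) most, and 2 were higher, *CPN60A2* (0.68) and *CPN60B3* (0.47). Of tested genes 7.35% were lower and 31.6% higher at 22°C. The responses differed for 5 of 15, with 2 higher and 3 lower, where 3.88% and 24.1% of tested genes were. Among them were *RBCX2* (0.41), *CPN20* (0.30), *CPN60A2* (-1.51) and *BSD2* (-0.52). With TMM scaling 6 of 15 were higher and 6 lower with heat in *cry1* mutants (34.5% and 37.3% of tested genes). In WT 5 were higher and 9 lower (33.7% and 36.3%). At 22°C 10 were lower in *cry1* mutants (12.8%), and *CPN60A2* and *CPN60B3* did not pass. At 44°C 4 were higher and 6 lower (14.6% and 10.5%). In the difference between responses 6 were higher and 1 lower (*CPN60A2*), where 11.4% and 5.4% of tested genes were.

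Cytosolic isozymes of the same reactions, which serve glycolysis and sucrose synthesis, moved in both directions. Of 10, 7 were lower and 3 higher with heat in *cry1* mutants, and 5 lower and 3 higher in WT, where 72.8% and 61.1% of all tested genes were lower and 11.3% and 15.3% higher, with medians of -0.86 and -0.35 against -1.24 and -0.86 for the median gene. *FBA6* (AT2G36460), a cytosolic aldolase, had 2291 ± 4.48 CPM in *cry1* and 1728 ± 88.3 CPM in WT at 44°C, against 175 ± 9.64 and 132 ± 15.8 CPM at 22°C (SD, n = 3 each), and rose by 3.71 in both genotypes (SE 0.09 each, adjusted p of 1.4e-18 or less). *PGK3* (AT1G79550) rose by 1.52 in *cry1* mutants and 1.56 in WT, while its plastid counterpart *PGK1* fell by 2.33 and 2.22. Beside *CFBP*, the cytosolic fructose-1,6-bisphosphatase *CYFBP* (AT1G43670) stood at -0.47 in *cry1* mutants (adjusted p = 0.00013) and at 0.08 in WT (adjusted p = 0.44), and with TMM scaling at 0.70 and 0.87. Beside *GAPB*, the cytosolic *GAPC1* (AT3G04120) rose by 0.52 and 0.56, while *GAPC2* stood at -1.22 and -1.35, and with TMM scaling at -0.05 (adjusted p = 0.54) and -0.55. *FBA5* (AT4G26530) and *FBA7* (AT4G26520), aldolases, were among those that fell, with -3.9 for *FBA5* and -2.04 for *FBA7* in WT. In *cry1* mutants *FBA4* (AT5G03690) stood at -1.83 and *FBA7* at -2.63. At 44°C *FBA5* (1.07) and *FBA6* (0.41) were higher and *CYFBP* (-0.84) and *FBA7* (-0.66) lower in *cry1* mutants, and at 22°C *FBA6* (0.41) and *FBA8* (0.24) were higher and *FBA5* (-1.03) and *CYFBP* (-0.29) lower. The responses differed most for *FBA5* (2.1, adjusted p = 0.00064 from edgeR). Its replicates were spread in *cry1* at 44°C, at 46.7, 94.1 and 58.4 CPM, against 29.4 to 33.3 CPM in WT at 44°C. They also differed for *FBA7* (-0.58), *CYFBP* (-0.55) and the triose-phosphate isomerase gene AT3G55440 (-0.55). In all 1 was called higher and 4 lower, where 3.88% and 24.1% of tested genes were. With TMM scaling 5 of 10 were higher with heat in each genotype, where 34.5% of tested genes were in *cry1* mutants and 33.7% in WT. With heat 3 were lower in *cry1* mutants and 4 in WT (37.3% and 36.3% of tested genes). At 22°C 0 were higher and 3 lower in *cry1* mutants (7.8% and 12.8%), and at 44°C 4 higher and 3 lower (14.6% and 10.5%). In the difference between responses 5 were higher and 0 lower (11.4% and 5.4%).

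The genes whose pattern over the 12 libraries was most like the mean of the 10 were *CA1* (AT3G01500, Pearson r = 0.9995), AT4G02530 (0.9991), *FNR1* (AT5G66190, 0.9991), which encodes a ferredoxin-NADP reductase, *RPI3* (0.999) and *ATPC1* (AT4G04640, 0.999), which encodes a subunit of the chloroplast ATP synthase. They were taken from 11107 genes with a mean of at least 10 CPM outside the 10, with log2(CPM + 1) as the measure. *CA1* is also one of the green mesophyll markers, and averaged 154 CPM in *cry1* and 197 CPM in WT at 44°C, against 1389 CPM in *cry1* and 1958 CPM in WT at 22°C. Since the libraries fall into 2 temperatures, 29.4% of those genes had an r above 0.95, and the values are given as a description.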

How the data were processed

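The values used are the expected counts that the authors deposited, 1 column for each of 12 libraries, in which 8.50% to 11.6% of values were not whole numbers. According to the methods, total RNA was depleted of rRNA, Trimmomatic trimmed the reads and RSEM quantified them against TAIR10. The labels also name polyA RNA and a stranded mRNA kit, and TopHat2 2.0.11 appears in the submitters' notes. No source used here states whether strand was used in counting, so a gene and its antisense partner cannot be told apart. All 26891 identifiers were found in the TAIR10.1 annotation, and 0 columns were left unmapped. Replicates differed by more than sampling noise (chi-square per gene 4.65 to 14), so all counted as separate. RSEM divides reads shared by near-identical genes by estimation, which bears on the *RBCS* genes. The methods give fewer days of white light than the seedling age in the labels implies.

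Counts were rounded and tested by the robust quasi-likelihood method of edgeR 4.0.16 under R 4.3.3 (1 term per group, library totals as the scale, common biological coefficient of variation 0.103). The test took the 21314 genes whose mean FPKM had a log2 over -5 in all 4 groups, with FPKM computed from counts, library totals and summed exon length. Calls were made at a Benjamini-Hochberg adjusted p under 0.05 over all tested genes. Ratios within a library were compared by two-sided exact permutation tests, 36 in all. Alternatives were TMM and median-ratio scaling, totals without the 10 genes, DESeq2 1.42.0, limma 3.58.1 on log2(FPKM + 0.1) and log2(FPKM + 1), no filter, a mean FPKM of at least 1, the compared groups only, a replicate block, a log2 fold change of at least 1, the chromosome 5 *RBCS* genes summed, and each library left out.

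The 10 genes, the lists and the rule for named genes were chosen with earlier results of these data known. The rule names the 10 genes, *CRY1*, up to 2 higher and 2 lower called members of each list and comparison with the largest change, plastid and cytosolic isozyme pairs, and the 5 genes most alike in pattern. *TKL1* and the *BSD2* value in the difference between responses were added after their values were seen. Values of some members of the list of Rubisco assembly and folding factors are not reported here.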

Additional observations from a re-analysis of the deposited data

Results flagged for a closer look

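For 5 of the 10 genes the heat response differed between *cry1* mutants and WT by the test of the difference itself, given as the response of *cry1* minus that of WT on the log2 scale. The values were 0.89 for *RCA*, 0.49 for *CFBP* and 0.43 for *PRK*, whose drop was smaller in *cry1* mutants, and -0.82 for *RBCS1B* and -0.69 for *RBCS2B*, whose drop was larger in *cry1* mutants. Of all tested genes 3.88% were called higher and 24.1% lower, so that the 2 lower of 10 lie under the share of all genes. The sum of *RBCS1B*, *RBCS2B* and *RBCS3B*, among which RSEM shared out reads, stood at -0.35 (adjusted p = 0.023 from edgeR), -0.02 from the median gene. The 3 positive values were also called with TMM scaling, and the *RBCS1B* and *RBCS2B* values were not. Each group held 3 libraries, too few for a search for single outlying libraries.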

How the results depend on the processing

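Across 21 to 23 alternatives per gene and comparison, the 10 genes were called lower with heat in both genotypes in every one except for *GAPA*. For *GAPA* the log2 fold change with heat in *cry1* mutants was 0.45 with TMM scaling, 0.48 with median-ratio scaling and 0.48 in DESeq2, and in WT it was 0.01, 0.04 and 0.04. The same alternatives turned the values of *RBCS1B* in *cry1* against WT at 22°C to -0.15, -0.17 and -0.17, those of *PRK* in *cry1* against WT at 44°C to 0.11, 0.10 and 0.10, and those of *GAPB* in the difference between responses to 0.08, 0.09 and 0.09, none of these called. Leaving out 1 library moved the difference for *SBPASE* between -0.04 and 0.05. With a log2 fold change of at least 1 also required, 0 genes were called in *cry1* against WT at 22°C, 1 at 44°C and 0 in the difference between responses, and 9 with heat in each genotype. The share of all tested genes at this limit was not computed. In the difference between responses DESeq2 called 12.3% of tested genes higher and 5.8% lower, and edgeR with TMM scaling 11.4% and 5.4%. Of the 10 genes DESeq2 called 8 (7 higher and 1 lower), against 5 in edgeR, and edgeR with TMM or median-ratio scaling called 7 higher and 0 lower. The cause was not tested beyond the shift of the median gene.

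Leaving out each library in turn gave 10 to 10 genes called with heat in each genotype, 8 to 9 in *cry1* against WT at 22°C, 7 to 8 at 44°C and 5 to 6 in the difference between responses, where *GAPB* passed without WT replicate 3 at 44°C (-0.37, adjusted p = 0.022 from edgeR). With the replicate number as a block, 10 genes were called with heat in *cry1* mutants, 10 in WT, 9 at 22°C, 7 at 44°C and 5 in the difference, and the block changed no call. Whether the numbers pair the samples was not settled. The deviations of same-numbered libraries correlated at -0.16 to 0.459 and those of different-numbered libraries at -0.499 to 0.302, and these ranges overlap. The lowest count of any of the 10 genes in a library was 536 (*RBCS1B* in *cry1* at 44°C).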
